A study of Oryza sativa with 24 samples.

Results

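The block described here is a stretch of neighbouring rice genes on chromosome 9, taken as every gene in the embryo or endosperm tables with an ID from OS09G0335000 to OS09G0368000, except 1 that is not reported here. It held 52 genes of the 17780 in the tables. The embryo tables had 49 of them and the endosperm tables had 39, with 36 in both tissues, 13 in the embryo tables only and 3 in the endosperm tables only. The number in such an ID follows the order of the genes along the chromosome, so that members with neighbouring numbers are neighbours, but it does not give a distance in bases. The block was picked because genes with the same accession difference at all embryo stages lay together there. The members were thus chosen by embryo log2 fold changes, which are given as a description, and the endosperm values were also known when it was picked.

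Embryo and endosperm were taken from seeds of Gopum, a japonica accession that sprouts readily on the panicle, and of Jowoon, a japonica accession that resists sprouting. Both were field-grown, were wild type by the labels, which name no treatment, and seeds were sampled 30, 45 or 60 days past heading (DAH). The labels give 2 libraries for each of the 12 groups of accession, tissue and stage, each made from seeds pooled over several plants. The study's methods name a larger number of replicates. For each tissue and stage the authors deposited 1 table of their comparison between the accessions, and these comparisons are called GJ30, GJ45 and GJ60. The 2 accessions are single lines, so what is seen between them is a difference between these lines.

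The embryo is the part of the grain that becomes the seedling, and the endosperm is the store that feeds germination. Where neighbouring genes differ between lines in the same direction in unlike tissues and at unlike ages, the difference is called fixed here, as a description of the values alone. As background, lines of a crop carry different versions of many chromosome segments, and a segment travels with all the genes on it when lines are crossed. Of the 52 IDs, 0 were paired with a gene name or function in the sources used here, so the members are described by ID and no role is given to them. For the same reason the tissue labels were not checked against named marker genes.

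All values are the authors' deposited ones. A log2 fold change above 0 means a higher level in Jowoon and one below 0 a lower level. The level of a gene is its mean log2 CPM (read count scaled to a common library size) over all libraries of a tissue, since no level per accession or per library was analysed here. The depth of the libraries is unknown, and precision was read from the standard error implied by each log2 fold change and its p-value. A gene was called differentially expressed (a DEG) where the accessions differed at least 2-fold and the false discovery rate over all genes of the table, FDR, did not exceed 0.05. In whole tissue, fewer cells of a type and less RNA per cell cannot be told apart. Nothing in the labels says that the 2 libraries of a group come from separate plants, so the p-values measure the spread between libraries, which may be technical.

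In the embryo, 22 of 49 members had the same sign at all 3 stages (44.9%), where 31.3% of all embryo genes did. The genes that chose the block are in this count. Calls in opposite directions at 2 stages were found in 4 members (8.16%), where 7.82% of all genes had them. A single stretch stood apart from the rest of the block. In this stretch 5 members with no other tested embryo gene between them, OS09G0355400, OS09G0356100, OS09G0356300, OS09G0357250 and OS09G0357300, were DEGs that were lower in Jowoon at all 3 embryo stages. They are places 22 to 26 of the 52 in the block, and are called the run below. No other member was a DEG of the same direction at 3 stages. The count was thus 5 of 49 members in the embryo tables (10.2%), where 1.89% of all embryo genes had such a pattern. All 5 were lower in Jowoon, as were 1.05% of all genes, and 0 members were higher at all stages, as were 0.84% of all genes. This contrast chose the block, and nothing is read from the difference between the shares.

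**Figure D1:**
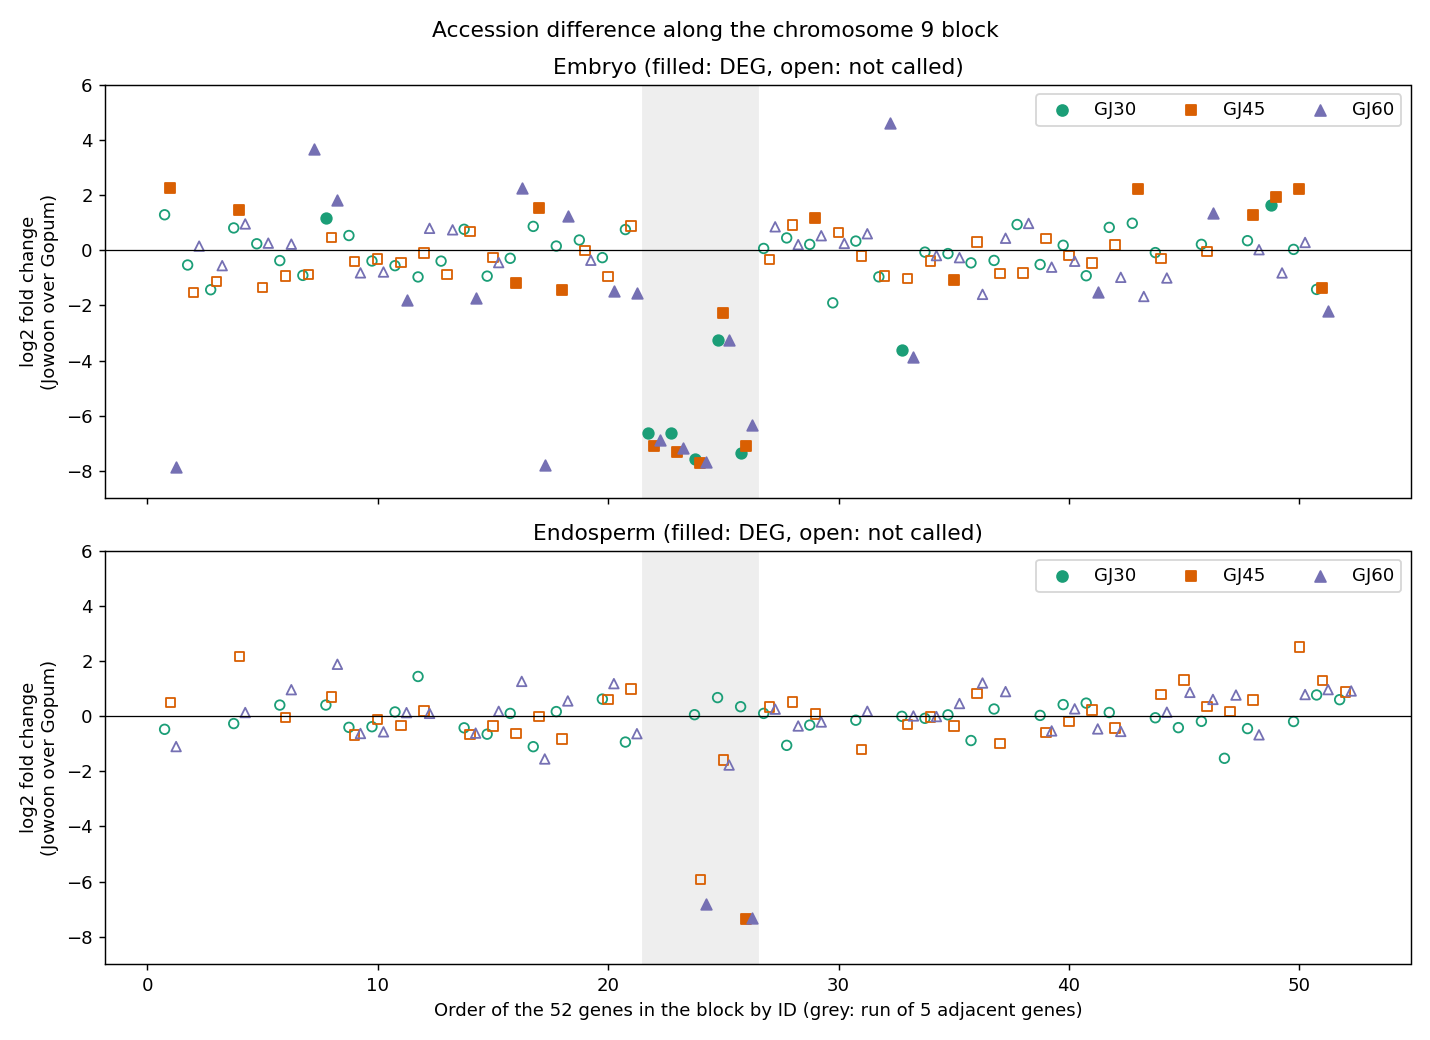
Log2 fold change of Jowoon over Gopum for the 52 genes in ID order, with the embryo above and the endosperm below; circles, squares and triangles are GJ30, GJ45 and GJ60, and filled symbols are DEGs. In the embryo the 5 run genes on the grey ground lie below 0 at every stage, between -2.26 and -7.70, while the other members scatter around 0 apart from a few values such as -7.87 and 4.64 at GJ60.

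The first gene of the run, OS09G0355400, had embryo log2 fold changes of -6.61 at GJ30, -7.10 at GJ45 and -6.88 at GJ60, with an FDR of at most 1.02e-04. The second, OS09G0356100, had -6.63, -7.31 and -7.17, with an FDR of at most 3.27e-05. Each of these was roughly as low at the last stage as at the first. OS09G0356300, the third of the run, varied least over the stages, at -7.57, -7.70 and -7.69, a span of 0.13. OS09G0357300 at the end of the run had -7.33, -7.10 and -6.33, and its FDR of 6.93e-04 at GJ60 was the highest in the run. At levels this low, a value of this size is set in part by the small count that such a fit adds to every library. It says that the gene was far lower in Jowoon and is not a measured ratio.

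OS09G0357250, the fourth gene of the run, was the most highly expressed of them and had the smallest difference. Its mean log2 CPM in the embryo was 3.46, against 1.55 to 2.18 for the other run genes. Its log2 fold changes were -3.27, -2.26 and -3.25 with implied standard errors of 0.52, 0.45 and 0.53, which is 9.63-fold, 4.79-fold and 9.53-fold lower in Jowoon. This is the run gene whose ratio can best be read, because its standard errors were less than those of its neighbours, which went up to 1.65. The run therefore did not have a single size of difference, and its 4 genes near a log2 fold change of -7 enclosed 1 gene with a lesser difference.

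Constancy could be judged only within this precision. Over the 3 pairs of embryo stages, 0 of the 5 run genes had a difference between stages at an adjusted p of at most 0.05. The smallest adjusted p was 0.272 (normal approximation on implied standard errors, two-sided, adjusted over all genes tested). The genes had been chosen for constancy, so this is a description. The 95% intervals of the differences between stages reached from -4.49 to 5.13 on the log2 scale over the 5 genes. For OS09G0357250 alone, the interval from GJ30 to GJ45 was -0.35 to 2.36, and that from GJ30 to GJ60 was -1.44 to 1.47. A 2-fold change in either direction from GJ30 to GJ60 lay inside the latter interval. It also lay inside the wider intervals of the other run genes.

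**Figure D2:**
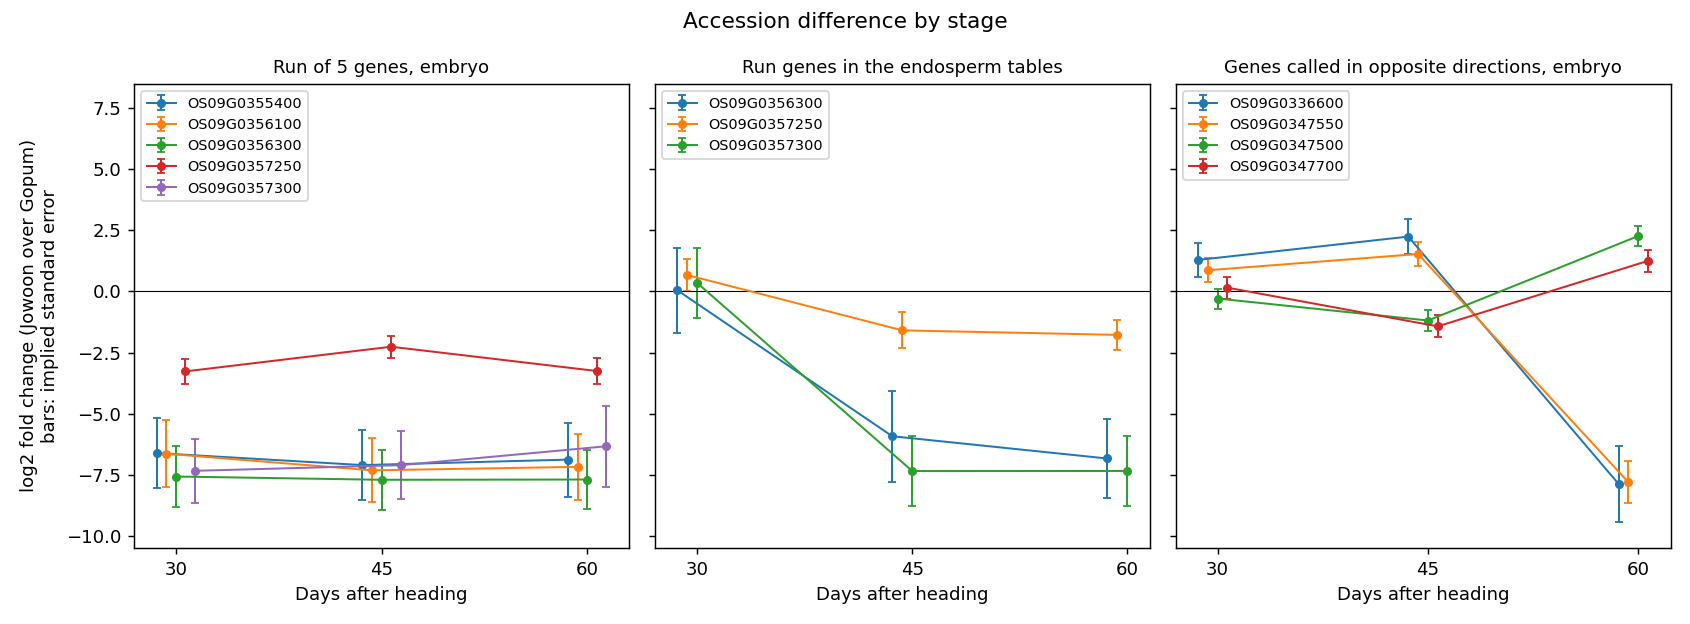
Log2 fold change of Jowoon over Gopum by stage in DAH, with bars of 1 implied standard error; the panels show the 5 run genes in the embryo, the 3 of them in the endosperm tables, and 4 members called in opposite directions in the embryo. The run lies below 0 at every embryo stage, and in the endosperm it lies near 0 at 30 DAH and below 0 afterwards. In the embryo OS09G0336600 and OS09G0347550 fall from above 0 to -7.87 and -7.80 at 60 DAH. At 30 DAH the bars of OS09G0356300 and OS09G0357300 in the endosperm and of OS09G0347700 in the embryo are medians from the later stages.

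The low level of the run genes was set beside that of other genes. Among the 1552 embryo genes within 0.25 of the mean log2 CPM of OS09G0356300, its log2 fold change was the 6th lowest at GJ30, the 4th at GJ45 and the 11th at GJ60. OS09G0356100 was 7th, 3rd and 8th of 1449 genes. OS09G0355400 was 7th, 7th and 19th of 1465 genes, and OS09G0357300 was 2nd, 5th and 52nd of 1457. These 4 genes lay near the lower edge of what genes of their level showed, except OS09G0357300 at GJ60, where its value of -6.33 stood away from the lowest of -8.11. OS09G0357250 was 11th, 22nd and 48th of 1417 genes of its level, where the lowest log2 fold change was -9.08 at GJ30, so its value was far from the lowest one.

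**Figure D3:**
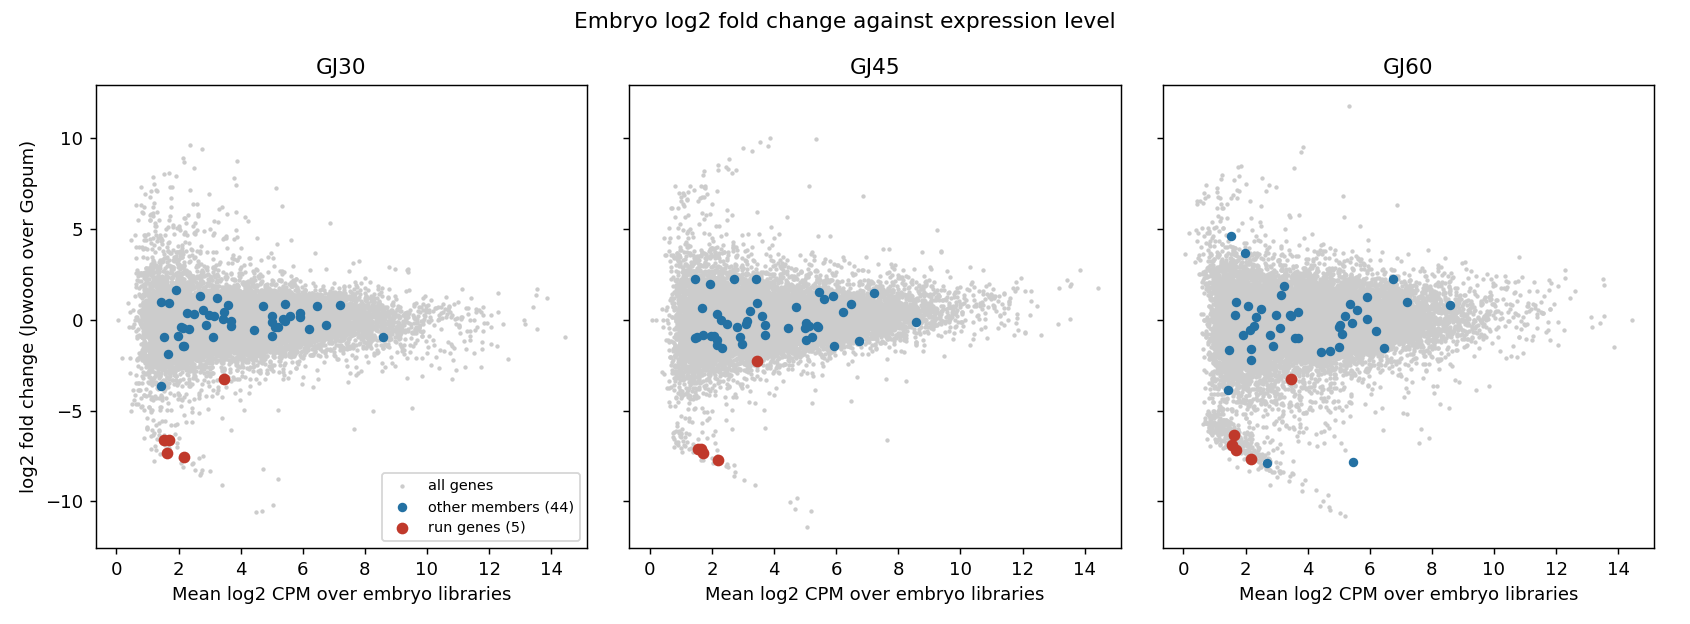
Log2 fold change of Jowoon over Gopum against the mean log2 CPM over the embryo libraries, with all genes in grey, 44 members in blue and the 5 run genes in red. Of the run genes, 4 lie at a mean log2 CPM of 1.55 to 2.18 at or near the lower edge of all genes, and OS09G0357250 lies at 3.46 inside it.

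In the endosperm tables the run was represented by OS09G0356300, OS09G0357250 and OS09G0357300. A difference between stages passed the test in OS09G0357300 alone. This gene had log2 fold changes of -7.34 at GJ45 (FDR 1.19e-04) and -7.34 at GJ60 (FDR 8.40e-05), next to -7.10 and -6.33 in the embryo. At GJ30 its value was 0.34 (FDR 1). The change from GJ30 to GJ45 was -7.68 with an adjusted p of 0.0263 (normal approximation on implied standard errors), and that from GJ30 to GJ60 was -7.68 with an adjusted p of 0.0325. The GJ30 standard error in these tests, 1.43, was the median of those at GJ45 and GJ60 and was not estimated at GJ30. Both tests thus take GJ30 to be as precise as the later stages, which was not tested. OS09G0357300 was thus equally low in both later endosperm stages, and its value was close to 0 at the first.

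OS09G0356300 had a value near 0 at GJ30 and lower ones later, with less precision. Its endosperm log2 fold change was 0.05 at GJ30 (FDR 1), -5.92 at GJ45 (FDR 0.0756) and -6.83 at GJ60 (FDR 0.00357). It was a DEG at GJ60 alone, and its mean log2 CPM of 0.73 was the lowest of all members in the endosperm. OS09G0357250 had 0.67 at GJ30, -1.59 at GJ45 (FDR 0.356) and -1.77 at GJ60 (FDR 0.163), and was not a DEG in the endosperm. Its difference again was the least of the run, as in the embryo. For these 2 genes the change from GJ30 to a later stage had adjusted p values from 0.342 to 0.438. For OS09G0356300 the GJ30 standard error was again the median of the later stages.

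The endosperm calls of the block were all in the run. At GJ45, 1 of 39 members was a DEG (2.56%), where 1.61% of all endosperm genes were, and at GJ60 there were 2 (5.13%), where 1.53% were. OS09G0357300 was the member called at both stages, and 0.577% of all endosperm genes were DEGs of 1 direction at both. All of these calls were lower in Jowoon, as 0.783% of all genes were at GJ45 and 0.747% at GJ60. Calls of higher genes, 0.826% of all genes at GJ45 and 0.783% at GJ60, were found in 0 members. With 1 or 2 members called, nothing is read from these shares. At GJ30 there were 0 DEGs among the members by the authors' edgeR comparison, and 1 member had an unadjusted p under 0.05, OS09G0346400 with a log2 fold change of 1.44. The whole GJ30 endosperm table held 0 DEGs among 14049 genes (0%) and had 351 genes with an unadjusted p under 0.05. Without regard to the FDR, 4 of 39 members differed at least 2-fold in the endosperm at GJ30, where 9.78% of all genes did. At GJ45 there were 8, where 25.3% of all genes did, and at GJ60 there were 9, where 18.3% did. Over GJ45 and GJ60 together, 2 of 39 members were a DEG at some stage, where 2.56% of all endosperm genes were.

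The embryo calls of the whole block lay on both sides of those of all genes. In the embryo, 8 of 49 members were DEGs at GJ30 (16.3%), where 17.6% of all genes were. At GJ45 there were 17 (34.7%), where 21.5% of all genes were, and at GJ60 there were 20 (40.8%), where 35.3% were. By direction, 2 members were higher in Jowoon at GJ30 and 6 were lower, where 8.3% and 9.34% of all genes were. At GJ45 there were 8 higher and 9 lower, where 10.9% and 10.6% of all genes were, and at GJ60 6 higher and 14 lower, where 15.5% and 19.8% were. Without the run, the counts were 3, 12 and 15 of 44 members, or 6.82%, 27.3% and 34.1%. At GJ30, then, 5 of the 8 DEGs of the block were the run. Over the stages, 27 members were a DEG at some stage (55.1%), where 53.7% of all genes were, and 22 were at none.

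The 22 members called outside the run were mostly called at 1 stage. A single stage had the call in 14 of them, 6 at GJ45 and 8 at GJ60, and 0 had it at GJ30 alone. Such calls at exactly 1 stage were found in 28.6% of the members and in 36.6% of all embryo genes. Another 4 members were called at 2 stages in the same direction, and 4 were called in opposite directions at GJ45 and GJ60. Calls at exactly 2 stages were thus found in 8 members (16.3%), where 13.3% of all genes had them. The opposite calls made up 8.16% of the members, where 7.82% of all embryo genes had such calls. The share of members that turned direction was near that of all genes.

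OS09G0336600 is the first member of the block, and OS09G0347550 lies 16 places further on. Their log2 fold changes followed the same course. OS09G0336600 had 1.29 at GJ30 (FDR 0.190), 2.24 at GJ45 (FDR 0.00996) and -7.87 at GJ60 (FDR 3.84e-06). OS09G0347550 had 0.87 (FDR 0.199), 1.53 (FDR 0.0119) and -7.80 (FDR 4.26e-17). The change from GJ45 to GJ60 was -10.11 for the former and -9.33 for the latter, with adjusted p values of 6.51e-08 and 2.78e-18 (normal approximation on implied standard errors). At GJ60, 115 of the 16897 embryo genes had a value of -7 or lower, and 4 of these were members. Of the 115, 42 were DEGs higher in Jowoon at GJ45, and 39 of those were also above 0 at GJ30. OS09G0336600 and OS09G0347550 are among the 39.

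These 2 genes were as low at GJ60 as the run but not before it, and in the endosperm they were not called. The endosperm log2 fold changes of OS09G0347550 were -1.11, -0.01 and -1.55 at GJ30, GJ45 and GJ60, the last with an FDR of 0.333. Those of OS09G0336600 were -0.48, 0.50 and -1.10. OS09G0347550 had a mean log2 CPM of 5.44 in the embryo, and was the 2nd lowest of 1268 genes of its level at GJ60. Its level was above that of each run gene.

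The genes beside OS09G0347550 went the other way. OS09G0347500, just before it in the block, had -0.29 at GJ30, -1.19 at GJ45 (FDR 0.0207) and 2.27 at GJ60 (FDR 7.49e-07). OS09G0347700, just after it, had 0.16, -1.43 (FDR 0.0116) and 1.25 (FDR 0.0155). So 3 members in a row turned direction between GJ45 and GJ60, the middle one downwards and those on either side upwards. The change was 3.45 for OS09G0347500 (adjusted p 9.30e-08) and 2.68 for OS09G0347700 (adjusted p 2.35e-04).

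Other members differed strongly at the last stage alone. OS09G0361100 had embryo log2 fold changes of -0.96, -0.92 and 4.64, the last with an FDR of 1.01e-06, and OS09G0344650 had -0.91, -0.88 and 3.69 with an FDR of 1.13e-08. Both were low in level, with a mean log2 CPM of 1.52 and 1.97, and neither was in the endosperm tables. OS09G0346700 had 0.68 at GJ45 and -1.72 at GJ60 (FDR 1.07e-05), a change with an adjusted p of 6.05e-06. OS09G0352400, the last member before the run, had 0.89 and -1.53 (FDR 1.56e-06), a change with an adjusted p of 3.26e-08. The neighbour of the run was thus above 0 and then below 0 at stages where the run stayed below 0.

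A group near the end of the block was higher in Jowoon at GJ45. OS09G0364900 had 1.30 (FDR 1.00e-04), OS09G0365000 had 1.94 (FDR 0.00288) and OS09G0365100 had 2.22 (FDR 0.00102) at that stage. OS09G0365000 was also a DEG at GJ30, with 1.63 (FDR 0.0308), while the other 2 were not, with 0.35 and 0.03. At GJ60 their values were 0.02, -0.82 and 0.29, and none was a DEG. OS09G0365100 also had 2.50 in the endosperm at GJ45, with an implied standard error of 1.26 and an FDR of 0.427. The last of the embryo members, OS09G0365300, was lower in Jowoon in the embryo at -1.42, -1.36 and -2.20, and was a DEG at GJ45 and GJ60. Its endosperm values were on the other side of 0, at 0.77, 1.30 and 0.96, and were not called. OS09G0361500 was the member nearest to the run in its embryo values, with -3.62 (FDR 0.0130), -1.03 (FDR 0.283) and -3.87 (FDR 0.00111), and it missed the call at GJ45. In the endosperm it was unlike the run genes at GJ45 and GJ60, with -0.01, -0.31 and 0.01 over the stages and a mean log2 CPM of 1.92.

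The members of highest level differed less than the run. OS09G0346400, with the highest mean log2 CPM of the block in both tissues (8.57 in the embryo and 5.69 in the endosperm), had embryo values of -0.96, -0.10 and 0.80 and was not a DEG at any stage. OS09G0338400 had 0.81, 1.48 and 0.96, and was a DEG at GJ45 with an FDR of 0.00167. In the endosperm it had -0.27, 2.16 (FDR 0.0774) and 0.13. OS09G0360400, next in level in the endosperm, had 0.22, 1.16 and 0.53 in the embryo and between -0.33 and 0.08 in the endosperm. OS09G0367700, the last member, was in the endosperm tables only, where it had 0.60, 0.88 and 0.91 and no call.

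Over the stages, a change of the accession difference was found in 17 of the 49 embryo members at some pair of stages (34.7%), where 45.3% of all embryo genes changed, and in 0 of the run. Between GJ30 and GJ45 it was found in 0 members, where 4.6% of all embryo genes changed. Between GJ30 and GJ60 it was found in 10 members (20.4%), where 30.9% of all genes changed, and between GJ45 and GJ60 in 16 (32.7%), where 34.5% did. These embryo shares were under those of all genes, the last of them only slightly. The block was picked for constant embryo differences, so nothing is read from this. In the endosperm 36 of the 39 members had an implied standard error and were tested. The change was found in 1 of these 36 from GJ30 to GJ45 and from GJ30 to GJ60, which was OS09G0357300 both times. Of all endosperm genes tested, 0.84% and 0.478% changed. From GJ45 to GJ60 it was found in 0 members, where 0.0617% of all genes changed. The median span of the 3 embryo log2 fold changes was 1.36 in the 44 members outside the run and 0.68 in the run, where that of all genes was 1.51.

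The correlations between embryo stages were given with and without the run, which had been chosen for values of the same direction at every stage and so raises them. Across the 49 members, Pearson's r between the embryo values of GJ30 and GJ60 was 0.57, and without the run it was -0.09. Between GJ45 and GJ60, r was 0.47 with the run and -0.38 without it, and Spearman's rho without it was -0.22, where r of all genes was 0.06. Of the 44 members outside the run, 21 had the same sign at these stages and 23 had opposite signs, which is about even. Between GJ30 and GJ45, r was 0.91 with the run and 0.53 without it, close to the 0.54 of all 16897 genes. Genes of the same libraries are not independent, and these correlations are a description.

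Signs were then compared. In the 3 embryo tables, 22 of 49 members had the same sign (44.9%), where 31.3% of all embryo genes did. The run genes are in this count by their selection, so nothing is read from the difference between these shares. In the endosperm at GJ45 and GJ60, 23 of 39 members had the same sign (59%), where 58.1% of all endosperm genes did. Of the 36 members in both tissues, 25 had the same sign in embryo and endosperm at GJ45 (69.4%), where 66% of all genes did, and 24 at GJ60 (66.7%), where 66.4% did. At GJ30 it was 11 members (30.6%), where 44.3% of all genes had the same sign. Without the run, r between the tissues across 33 members was 0.51 at GJ45, 0.58 at GJ60 and -0.36 at GJ30. Across all 13166 genes in both tissues, r was 0.54, 0.53 and -0.15 in the same order. At GJ30 the r of the members outside the run was thus further below 0 than that of all genes, and the differences from all genes were not tested. Genes of the same libraries are not independent, and by the study's methods the seeds were divided into embryo and endosperm.

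**Figure D4:**
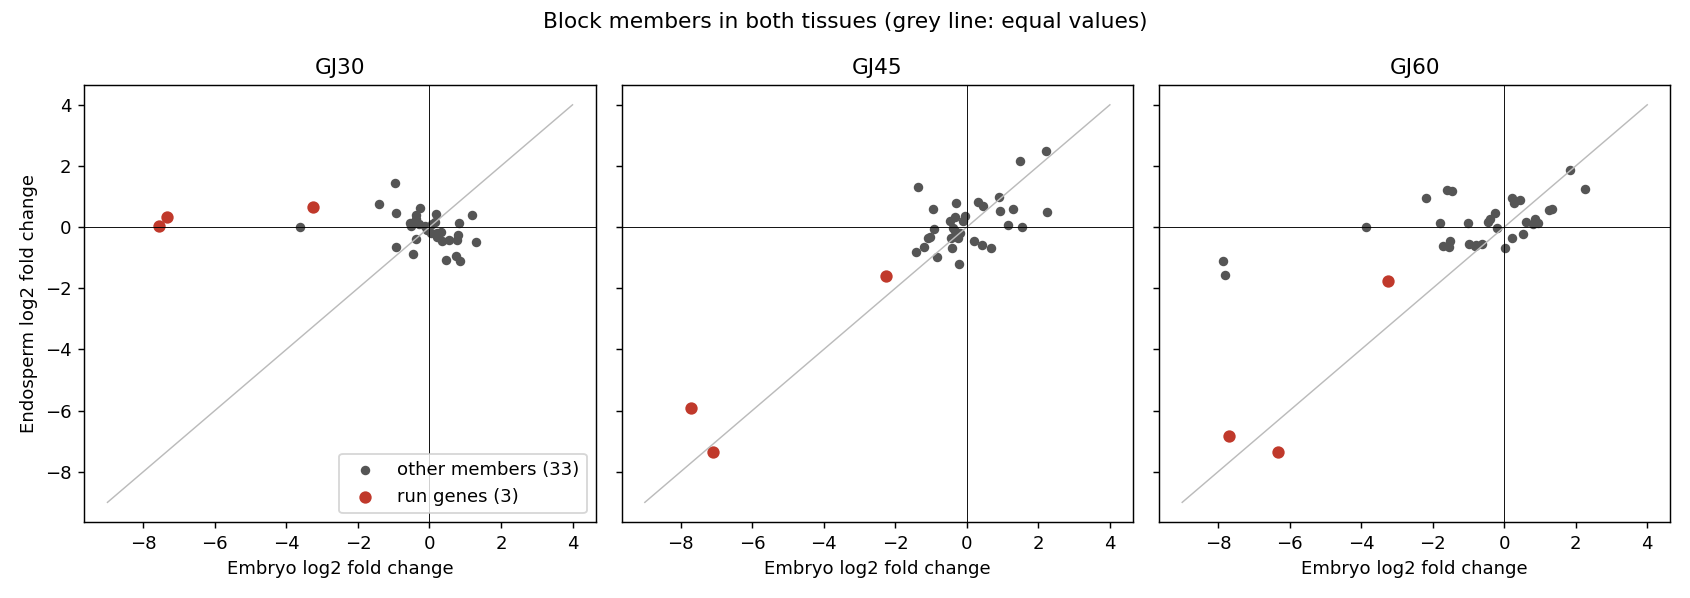
Endosperm against embryo log2 fold change for the 36 members in both tissues at each stage, with the 3 run genes in red and the other 33 in grey, and a grey line where both are equal. At GJ45 and GJ60 the run genes lie near the line at the lower left, and at GJ30 they lie between 0.05 and 0.67 in the endosperm while the embryo values are between -3.27 and -7.57.

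A sign that was the same in the 3 embryo tables and in the endosperm at GJ45 and GJ60 was found in 8 of the 36 members (22.2%), where 13.6% of all genes in both tissues had it. The 3 run genes, chosen for 1 direction in the embryo, were among them, so nothing is read from the difference between these shares. The others were OS09G0345000 and OS09G0361700, which were lower in Jowoon with embryo log2 fold changes of at most 0.79 in size, and OS09G0338400, OS09G0344700 and OS09G0365100, which were higher. OS09G0344700, higher in every table, had 1.18, 0.46 and 1.83 in the embryo and 0.40, 0.70 and 1.88 in the endosperm. With the endosperm at GJ30 added, 3 members had the same sign in 6 tables (8.33%), where 5.35% of all genes did, and 0 of them were in the run. The 3 run genes were above 0 in the endosperm at GJ30, so their sign was not the same over all stages of both tissues. In that comparison 0 of 14049 genes were DEGs, and r with embryo GJ30 over all genes was -0.15. Whether the run was fixed, in the sense given above, in the endosperm at GJ30 cannot be told from these values.

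The run was set in its surroundings on chromosome 9. Before it lay 21 members in the embryo tables and after it 23. The nearest members on either side, OS09G0352400 and OS09G0359800, were not DEGs of the same direction at every embryo stage. The median size of the embryo log2 fold change was 6.63, 7.10 and 6.88 in the run at GJ30, GJ45 and GJ60. It was 0.56, 0.89 and 0.96 in the members before the run and 0.45, 0.82 and 0.82 in those after it, where that of all genes was 0.60, 0.65 and 0.86. The run was defined by its calls, so that its edges and its median against its neighbours follow from the definition.

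Of the 894 embryo genes tested on chromosome 9, 19 were called in 1 direction at every stage, and 14 of them lay outside the block. Just before the first member, the 20 tested genes held 4 of these, namely OS09G0325300, OS09G0327575, OS09G0328066 and OS09G0328800. OS09G0328800, 3 places before the first member, had -7.90, -7.92 and -8.13 in the embryo and 0.62, -7.86 and -6.53 in the endosperm. OS09G0327575 was higher in Jowoon, with 5.14, 6.37 and 7.47 in the embryo and -0.41, 6.36 and 5.34 in the endosperm. OS09G0325300 had -8.52, -8.00 and -8.15 in the embryo and -0.75, -5.99 and -7.02 in the endosperm. In these 3 genes, as in the run, the endosperm value at GJ30 was close to 0 and the later ones were not, in 1 of them in the opposite direction. In all, 23 tested genes lay between the last of them and the run. The 20 tested genes after the block held 0.

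The tested genes at the borders of the block were not called in the same direction at every embryo stage. The tested gene just before the block, OS09G0332700, had embryo log2 fold changes of 1.23, 1.09 and 0.78 and was not called in the embryo. It was above 0 in the endosperm too, at 0.12, 3.44 and 1.07, and was a DEG there at GJ45 (FDR 3.39e-06). The gene just after it, OS09G0369000, was called at each embryo stage, with 1.14, 1.33 and -5.06, and so turned direction as OS09G0336600 did. In the endosperm it had -0.55, -0.97 and -2.51 and was a DEG at GJ60 (FDR 0.0305).

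Over all 16748 embryo genes with a position in their ID, 6 stretches of at least 3 adjacent tested genes were called in 1 direction at every stage. The run of 5 was the longest of these. The next had 4 genes and lay on chromosome 11, and the other 4 had 3 genes each and lay on chromosomes 2, 4 and 11. The run had been found because of such clustering, so its rank is a description.

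**Figure D5:**
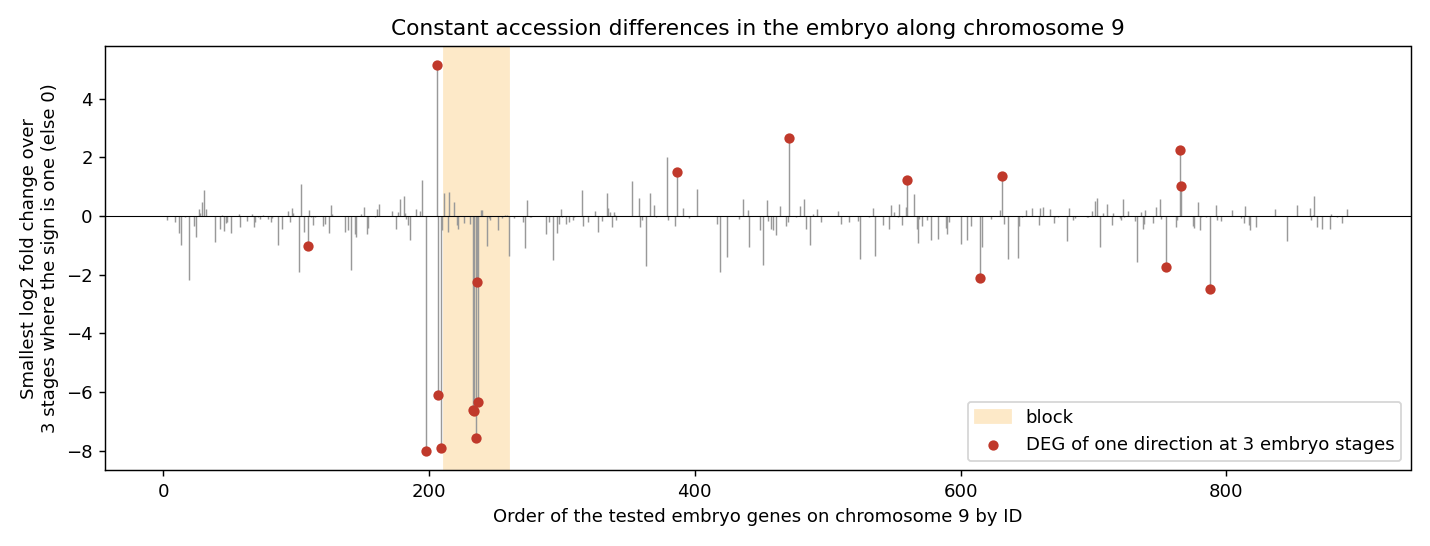
Smallest of the 3 embryo log2 fold changes in size for each tested gene on chromosome 9 in ID order, drawn only where the 3 stages share a sign, with those called in 1 direction at every stage in red and the block shaded. The 5 run genes stand together in the block at -2.26 to -7.57, with 4 more such genes just before the block and the other 10 reach 2.66 at most in size.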

How the data were processed

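By the study's methods, Trimmomatic, HISAT2 on the IRGSP genome and featureCounts gave reads per gene, which the authors scaled to CPM and compared between accessions with edgeR. The 6 deposited tables hold, per gene, the authors' log2 fold change with its p-value and FDR, and the log2 CPM averaged over the tissue's libraries. Because they hold nothing per library, these columns were used as deposited. The authors' edgeR test function, gene filter and number of libraries per comparison are not given in the sources used here. Adjusting the deposited p-values by Benjamini-Hochberg gave the deposited FDR. Positive was read as higher in Jowoon, because 10 of 10 genes whose direction the study names had that sign.

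The implied standard error was the size of the log2 fold change over the normal quantile of its p-value where that was at least 0.5, otherwise the median over the tables of the tissue. Genes under 0.5 in every table of a tissue had no implied standard error and were not tested. Stage differences were tested on it for 16790 of 16897 embryo genes and 12975 of 14049 endosperm genes (Python 3.11.15, scipy 1.17.1). Shares of all genes that changed between stages are shares of these tested genes. The test was also run on estimates simulated from a normal model with known standard errors. Such data cannot show how the test behaves at low counts or with few libraries. The genes named are those constant in the embryo, those called in the endosperm, 3 called in opposite directions, 3 of highest level per tissue, and the ends of the block with their neighbours. The rest were chosen after their values were seen. Members and lists were chosen with earlier results of these data known. No grouping by function and no marker check was made, because no ID was paired with a name.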

Additional observations from a re-analysis of the deposited data

Results flagged for a closer look

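For 4 of the genes named by rule in the embryo and 1 in the endosperm, the log2 fold change differed between 2 stages in a test of that change. The values below are the later minus the earlier log2 fold change, for the pair of stages with the smallest adjusted p. In the embryo from GJ45 to GJ60, it was -10.11 for OS09G0336600, 3.45 for OS09G0347500 and -9.33 for OS09G0347550. In the embryo from GJ30 to GJ60, it was 1.76 for OS09G0346400, which was not a DEG at any stage (adjusted p 1.83e-05). In the endosperm from GJ30 to GJ45, it was -7.68 for OS09G0357300 (adjusted p 0.0263), with the GJ30 standard error taken from the later stages. The authors' p-values behind these tests come from an unknown number of libraries, and the part that this plays was not tested.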

How the results depend on the processing

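Centring each table on the median of its genes, which was -0.15 for embryo GJ60 and within 0.1 of 0 for the others, moved no count of members by over 1.5 times. It turned the sign of 3 of 264 member values, none of them a DEG and each at most 0.00752 in size, and the members with 1 sign in the 5 tables went from 8 to 9. No member named by rule reversed under the alternatives run. The other alternatives moved counts as follows. A fold change of at least 4 left 8 embryo DEGs at GJ45 and 12 at GJ60. An FDR of at most 0.01 left 5 at GJ30. A mean log2 CPM of at least 3 left 2, 9 and 10 embryo DEGs, 0 endosperm DEGs at GJ45, at GJ60 and at both, 1 member constant in the embryo (OS09G0357250), 3 with 1 sign in the 5 tables, 6 that changed between embryo GJ30 and GJ60, and 0 that changed between endosperm GJ30 and either later stage. The 4 other run genes were under that level, so the run as such rests on genes of low level. An adjusted p of at most 0.01 left 10 that changed from embryo GJ45 to GJ60, and 0 between endosperm GJ30 and either later stage. Widening the block by 20 genes on each side gave 20, 27 and 40 embryo DEGs, 6 and 9 endosperm DEGs at GJ45 and GJ60, 9 genes constant in the embryo, 5 constant over the later endosperm stages and 14 with 1 sign. The DEG limits were unchanged there. They were passed by 17.6%, 21.5% and 35.3% of all embryo genes, and by 1.61% and 1.53% of all endosperm genes at GJ45 and GJ60. Of all embryo genes 1.89% were constant, and of all endosperm genes 0.577% were over the later stages. Of all genes in both tissues, 13.6% had 1 sign in the 5 tables. The widened set holds more genes than the block, so its higher counts are not read as higher shares. Shares of all genes under the stricter limits are not given here, so those counts say nothing of the block against all genes. With endosperm GJ30 added after seeing the data, 3 members had 1 sign. No paired analysis was possible because the tables hold no values per library, and no replicate could be left out for the same reason. The unknown depth and the implied standard errors of the run genes limit what can be said of their ratio.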
